A study of Mus musculus with 6 samples.

Results

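Complement genes were measured in whole hearts of sham and tail-suspended mice, and the 9 genes described here were C1qa, C1qb, C1qc, C1s, C2, C3, C4b, Cfb and Cfd. They were chosen by name, with earlier results of these data known. Each probe that was not a control spot and whose gene name on the array was 1 of these 9 was taken. This gave 10 probes for 9 of 28909 gene names on the array. The mice were male C57BL/6, given as 10 weeks old when suspension began in 1 label and as 11 weeks old in another, labels that conflict, so the age is not settled here. The tail-suspension (TS) group hung by the tail for 28 days with the hindlimbs off the floor, a model used to simulate weightlessness, and the sham group was housed alike without suspension. No drug or altered gene was part of these 2 groups, which held 3 mice each. Total RNA of cardiac muscle was labelled with 1 dye and hybridised to Agilent mouse arrays, 1 array per mouse. All 9 genes had at least 1 probe that was tested. Because the RNA came from whole tissue, more cells of a type and more RNA per cell cannot be told apart in any value below.

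Complement is a set of blood and tissue proteins that tag particles for removal. The classical pathway starts when C1q, built from chains encoded by C1qa, C1qb and C1qc, binds its target and activates the proteases C1r and C1s, which then cut C4 and C2. The alternative pathway uses factor B (Cfb), which is cut by factor D (Cfd). Both routes build convertases that cut C3, the central component, and C3 fragments then coat the target and lead to the membrane attack complex. Most circulating complement protein is made by the liver, while C1q is known as a product of macrophages and factor D, also called adipsin, as a product of fat cells.

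Each array held 59305 spots that were not controls, for 55681 probes. Between 50.9% and 53.4% of these probes were well above background on an array, no spot was saturated, and all arrays lay on 1 slide. Sham 1, 2 and 3 and TS 1 lay in the first row of the slide and TS 2 and TS 3 in the second row. The labelled tissue was checked by its markers, and all 8 cardiomyocyte markers, such as the troponin genes Tnnt2 and Tnni3, were well above background on all 6 arrays. Intensities below are the processed intensities of the scanner files. Levels are log2 intensities set against the 75th percentile of their array (300 to 375 in intensity), and differences are TS minus sham on that log2 scale. The number of arrays limits the precision. The exact permutation test of 3 arrays against 3 cannot give a two-sided p below 0.1, so the test used was limma across all 28032 tested probes with Benjamini-Hochberg adjustment.

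Of the 9 complement genes, C4b, Cfb, C3, C2 and C1s were higher in tail-suspended mouse hearts than in sham ones at an adjusted p under 0.05, and 0 were lower. The rise was 11.3-fold for C4b, 3.73-fold for Cfb, 3.32-fold for C3, 2.03-fold for C2 and 1.52-fold for C1s. Among all 17140 genes tested, 10.5% were higher and 10.6% lower by the same rule. Because the 9 genes were chosen with earlier results known, the shares over all genes give a scale and are not an independent test. Every TS array lay above every sham array for 6 of the 9 genes, against 22.0% of all genes tested. The median difference of the 9 genes was 1.02 on the log2 scale, beside -0.02 over all genes tested. At an unadjusted p under 0.05 by limma, 8 of the 9 genes were higher and 0 lower, Cfd being the exception, beside 18.7% higher and 20.6% lower among all genes tested. The methods' t-test with the same adjustment called 3 higher (C3, C4b and Cfb) and 0 lower, beside 5.28% and 5.11% of all genes.

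**Figure D1:**
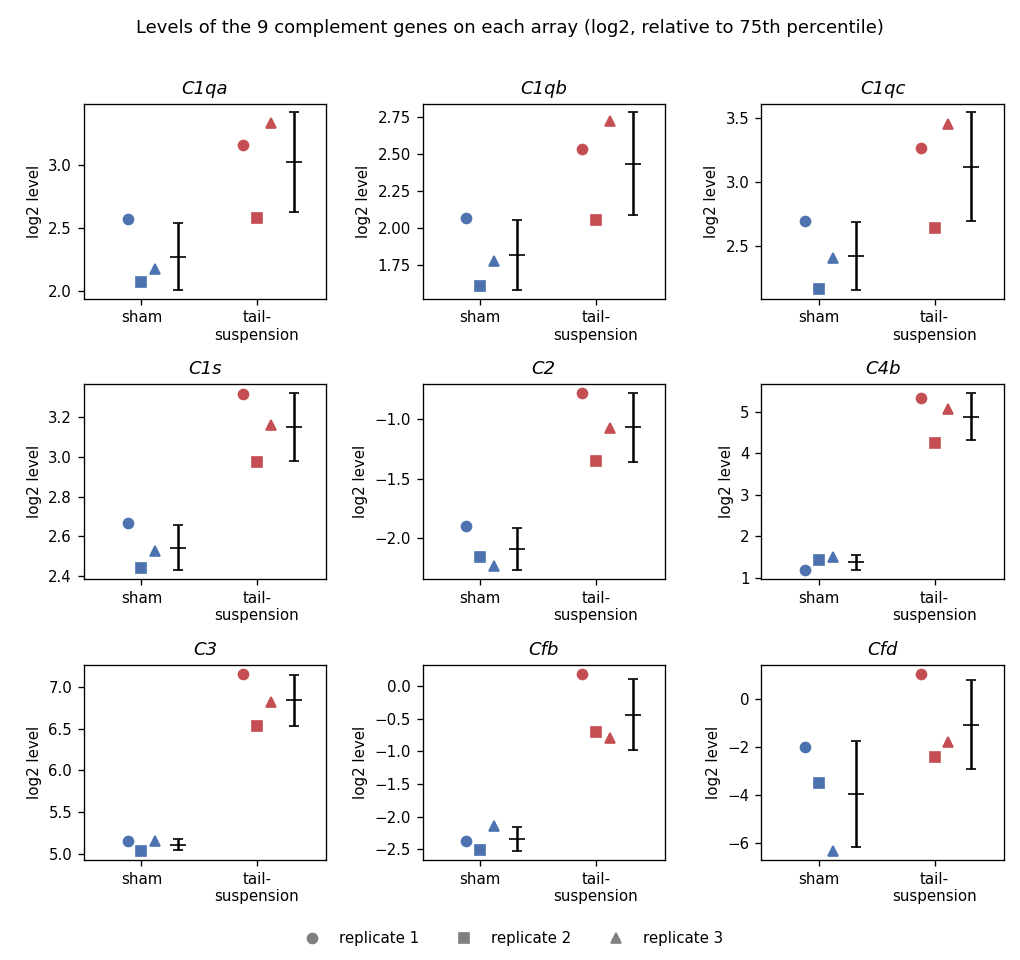
Log2 level relative to the 75th percentile of the array (vertical axis) of each of the 9 genes on the 3 sham arrays (blue) and the 3 TS arrays (red), read from the brightest tested probe, with the mean and SD of each group in black; each panel has its own scale. C4b, C3, Cfb, C2 and C1s show a clear gap between the groups, the C1q chains do not, and Cfd is spread over several log2 units within each group.

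The 3 genes of C1q were examined first, as the recognition unit of the classical pathway. They lie side by side on chromosome 4, with no other protein-coding gene between them in the RefSeq table. The C1qa probe (mm9 chr4:136452409-136452468, minus strand) read 1894, 1331 and 1356 in sham 1, 2 and 3 and 3022, 2237 and 3761 in TS 1, 2 and 3. The C1qb probe (mm9 chr4:136436578-136436637, minus strand) read 1340, 967 and 1031 in sham and 1949, 1557 and 2462 in TS. The C1qc probe (mm9 chr4:136445766-136445825, minus strand) read 2063, 1422 and 1588 in sham and 3247, 2340 and 4088 in TS, each value from 10 spots. All 3 genes shared the same order of arrays: sham 1 was the highest sham array, and TS 2 the lowest TS array. On the log2 scale TS 2 was above sham 1 by 0.01 for C1qa and below it by 0.02 for C1qb and 0.05 for C1qc, so the groups touched or overlapped.

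The log2 difference was 0.75 (SE 0.23, 95% confidence interval 0.21 to 1.29) for C1qa, 0.61 (SE 0.20, 0.14 to 1.09) for C1qb and 0.70 (SE 0.24, 0.14 to 1.26) for C1qc. By limma, the adjusted p values were 0.0594, 0.0723 and 0.0792, so none passed the threshold. As folds, these intervals ran from 1.16 to 2.45 for C1qa, from 1.1 to 2.13 for C1qb and from 1.1 to 2.4 for C1qc. The calls depended on TS 2 and on the processing. Without TS 2 the log2 differences were 0.98, 0.81 and 0.94 with limma adjusted p values of 0.0196, 0.0265 and 0.0222. With all 6 arrays the 3 genes passed under normexp background correction (limma adjusted p = 0.0175, 0.0304 and 0.0297) and with array weights (0.0203, 0.0257 and 0.0255), and C1qa and C1qb passed with an intensity trend (0.0392 and 0.0466). Over the 20 alternatives the adjusted p ranged from 0.0175 to 0.215 for C1qa, from 0.0257 to 0.252 for C1qb and from 0.0222 to 0.244 for C1qc. The profiles of the 3 genes over the 6 arrays were close, with root mean square differences of 0.05 to 0.08 on the log2 scale after centring.

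C1q binds the proteases that carry its signal on, of which C1s is the one that cuts C4 and C2. The probe named C1s on the array matched the gene that RefSeq now calls C1s1 and lies at mm9 chr6:124480775-124480834 on the minus strand. It read 2026, 1720 and 1725 in sham and 3358, 2944 and 3335 in TS hearts. Each TS array lay above each sham array, with a gap of 0.31 on the log2 scale. The mean level was 2.54 ± 0.12 (SD, n = 3) for sham and 3.15 ± 0.17 (SD, n = 3) for TS hearts, a log2 difference of 0.61 (SE 0.12) with an adjusted p of 0.0195 by limma. This call was lost, with the same direction, without sham 2 (adjusted p = 0.078), without TS 1 (0.0531) and without TS 3 (0.0669), in limma fits whose adjusted p ranged from 0.0069 to 0.0791 over the 20 alternatives.

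C4b showed the strongest rise of the 9 genes and ranked 23 among 17140 genes by the size of its rise. C4, once cut, binds covalently to the target and forms the classical C3 convertase together with C2. The C4b probe (mm9 chr17:34865328-34865387, minus strand) read 722, 860 and 857 in sham 1, 2 and 3. It read 13576, 7094 and 12438 in TS 1, 2 and 3, so the lowest TS array was 2.73 log2 units above the highest sham array. The level rose from 1.38 ± 0.18 (SD, n = 3) to 4.88 ± 0.57 (SD, n = 3), a difference of 3.50 (SE 0.28, 95% confidence interval 2.84 to 4.16) with a limma adjusted p of 0.00213. The probe lists a transcript of C4a as well as one of C4b, and C4a has no name of its own on the array, so the signal of these near-identical genes cannot be told apart.

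C2, the partner of C4 in the classical convertase, rose as well. Its probe (mm9 chr17:34999575-34999634, minus strand) read 85.7, 71.3 and 63.8 in sham and 196, 147 and 177 in TS hearts. The groups were separated by 0.54 on the log2 scale. The level changed from -2.09 ± 0.18 to -1.07 ± 0.29 (SD, n = 3 each), a difference of 1.02 (SE 0.17) with a limma adjusted p of 0.0116. The call was lost without sham 2, where the difference was 0.99 and the adjusted p by limma 0.0511. It was lost also with the methods' t-test (adjusted p = 0.055). Over the 20 alternatives its adjusted p ranged from 0.00496 to 0.055. With normexp background correction and its offset of 50, the log2 difference was 0.58 for C2, 1.19 for Cfb and 1.18 for Cfd, and of these C2 and Cfb passed.

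C3, the component on which all pathways meet, was read by 2 probes. The brighter one (mm9 chr17:57343416-57343475, minus strand; 10 spots) read 11312, 10357 and 10643 in sham and 48118, 34822 and 42219 in TS hearts. The other (mm9 chr17:57343678-57343737, minus strand) read 5886, 5257 and 4807 in sham and 25484, 18449 and 21361 in TS. Sham hearts differed little from each other on both probes, and the gap to the TS hearts was 1.39 and 1.41 log2 units. The difference was 1.73 (SE 0.16) by the brighter probe and 1.81 (SE 0.17) by the other, with limma adjusted p values of 0.0026 and 0.00251.

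Cfb, which takes the place of C2 in the convertase of the alternative pathway, rose together with C3. The coordinates of its probe span 357 bases (mm9 chr17:34993502-34993858, minus strand), more than the length of the other probes, which is seen when a probe crosses an intron. It read 61.8, 55.5 and 68.0 in sham and 383, 229 and 215 in TS hearts. Every TS heart was above every sham heart, by at least 1.35 on the log2 scale. The level went from -2.34 ± 0.19 to -0.44 ± 0.54 (SD, n = 3 each), a difference of 1.90 (SE 0.27, 95% confidence interval 1.26 to 2.54) with a limma adjusted p of 0.00772.

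Cfd, the protease that activates factor B, was the least even of the 9 genes. Its probe (mm9 chr10:79355302-79355361, plus strand) read 79.0, 27.5 and 3.65 in sham 1, 2 and 3 and 691, 69.1 and 107 in TS 1, 2 and 3, and sham 3 was not well above background. TS 2 lay below sham 1, so the groups overlapped. The level was -3.97 ± 2.21 in sham and -1.07 ± 1.85 in TS hearts (SD, n = 3 each). The difference of 2.89 (SE 1.29) had a 95% confidence interval from -0.18 to 5.97 and a limma adjusted p of 0.149. Holding dim levels at the lowest signal well above background, an alternative chosen after seeing the data, brought the difference to 2.20 with a limma adjusted p of 0.142, within a range of 0.0573 to 0.335 over 19 alternatives. Without sham 3 the difference was 1.70 (limma adjusted p = 0.321), and without TS 1 it was 1.84 (0.335).

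The sizes of the changes were compared between members in 9 pairs by the exact two-sided permutation test, in which 0.1 is the smallest p. The log2 change of C4b was 1.77 above that of C3, 1.6 above that of Cfb and 2.47 above that of C2, and that of Cfb was 0.87 above that of C2 (C2 minus Cfb -0.87). That of C1qa was 0.14 above that of C1qb. In these 5 pairs the arrays did not overlap (p = 0.1 each, 0.18 after adjustment over the 9 pairs, exact test), which the design does not allow to pass. The changes of Cfb and C3 differed by 0.17 with overlapping arrays (exact p = 0.6).

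The position on the slide moved with the groups in part. TS 1, the TS array in the row of the sham arrays, was above the sham mean by 3.95 for C4b, 2.52 for Cfb, 2.05 for C3, 1.31 for C2, 0.77 for C1s, 0.89 for C1qa, 0.71 for C1qb, 0.84 for C1qc and 5.0 for Cfd on the log2 scale. A limma fit with the row as a block gave these same differences, since it sets TS 1 alone against the sham arrays, while TS 2 and TS 3 enter only the estimate of the spread and TS 1 is assumed to vary as the others do. On that basis C2, C3, C4b and Cfb passed with adjusted p values of 0.0431, 0.0147, 0.0147 and 0.0133, and C1s did not (0.0791).

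**Figure D2:**
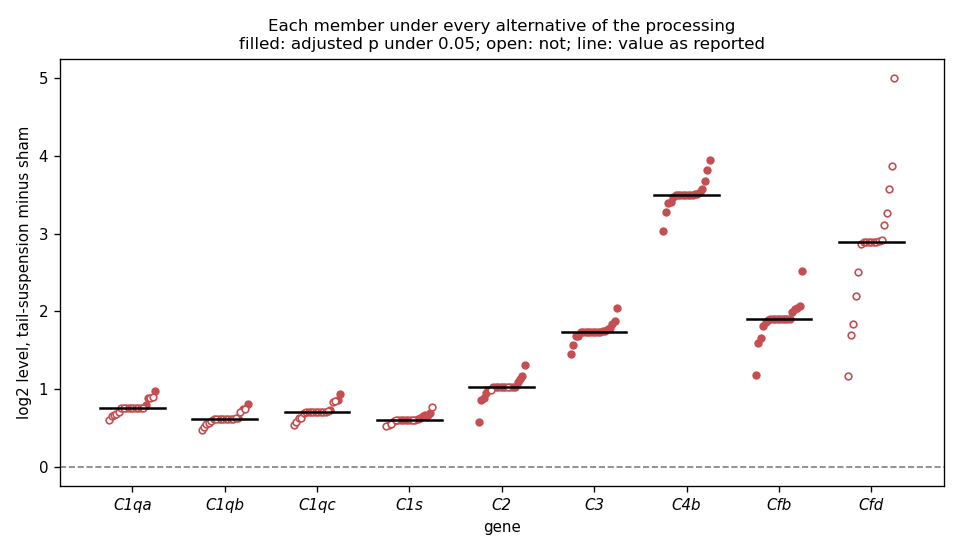
Log2 difference TS minus sham (vertical axis) of each of the 9 genes (horizontal axis) under each alternative way of processing the arrays, filled where the adjusted p was under 0.05; the black line is the value as reported. All points are above 0: C3, C4b and Cfb passed in 20 of 20 alternatives, C2 in 18, C1s in 14, the C1q genes in 3 or 4 and Cfd in 0 of 19.

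Promoter sequences of 5 of the 9 genes were found in the RefSeq promoter table (GRCm38.p6), and those of C3 and C1s are shown because these are the 2 among them that passed the threshold. Each is the run of 250 bases before the start of the gene, 5′ to 3′ on the strand of the gene, with matches to the searched motifs in capitals. C3 lies at chr17:57228137-57228386 and C1s (C1s1, the start farther upstream of 2) at chr6:124542360-124542609, both on the minus strand.
C3: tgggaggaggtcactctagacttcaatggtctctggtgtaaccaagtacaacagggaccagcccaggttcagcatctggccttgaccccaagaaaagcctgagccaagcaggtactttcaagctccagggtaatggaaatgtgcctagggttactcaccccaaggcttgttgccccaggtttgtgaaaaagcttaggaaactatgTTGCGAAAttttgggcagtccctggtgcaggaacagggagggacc
C1s: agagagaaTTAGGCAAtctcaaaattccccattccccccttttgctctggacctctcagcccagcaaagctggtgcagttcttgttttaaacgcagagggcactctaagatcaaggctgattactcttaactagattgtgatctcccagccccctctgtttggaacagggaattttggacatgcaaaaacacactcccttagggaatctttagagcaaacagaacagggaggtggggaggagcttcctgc
The motifs searched on both strands were TTGCNNAA, a core of sites for C/EBP factors, TTCNNNGAA, the STAT core, GAAANNGAA, a core of interferon-response elements, and GAGGAA, a core of PU.1 sites. C3 held 1 match to TTGCNNAA, which began 45 bases before the start, and C1s held 1, which began 242 bases before its start. The C1qb and C1qc windows each held 1 match to GAGGAA. The second C1s start and Cfd held none of the 4 motifs. Over all 32851 promoters of the table, the same window held TTGCNNAA in 9.56%, TTCNNNGAA in 7.02%, GAAANNGAA in 7.13% and GAGGAA in 23.3%. A match is a description of the letters and not a site of binding.

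The rest of the pathway was read from 51 other complement genes listed by role, of which 48 were on the array and 33 tested. Of these, 10 were higher and 2 lower, against the 10.5% and 10.6% of all genes. The median difference of the 33 was 0.23 on the log2 scale. Of the 20 alternatives, Cd93 passed in 20, C1rl in 19, C6 in 18, Masp1 in 17, C1s2 in 15, Serping1 in 13, C1ra, Vsig4 and Vtn in 12, C1rb in 11 and C8g in 8. Of the 10 higher genes, Masp1 and C6 were not well above background in any sham heart and entered the test through the TS arrays alone. With only probes well above background on all arrays, 8 of 31 were higher, beside 10.6% of all genes. Another, C1s2, was read by a probe that C1s1 shares. The count of higher genes moved with the arrays used, as did the share over all genes. It was 4 (4.94% of all genes) without sham 1, 3 (3.47%) without sham 2 and 6 (7.13%) without sham 3. It was 3 (5.61%) without TS 1, 13 (10.4%) without TS 2 and 3 (3.95%) without TS 3, and 1 (1.23%) with the slide row as a block, by limma in each case.

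The proteases that work with C1q rose beside C1s. Of 12 other genes that start the classical and lectin pathways, 8 were tested, 5 were higher and 0 lower, beside 10.5% and 10.6% of all genes. C1ra, the protease that activates C1s, read 842, 800 and 761 in sham and 1454, 1218 and 1506 in TS hearts, a log2 difference of 0.58 (limma adjusted p = 0.0236), and its dimmer probe gave 0.54. C1rb rose by 0.54 and C1rl by 0.66. C1s2 is a close copy of C1s that the array names Gm5077. Its bright probe, which gave 0.58, lists transcripts of C1s1 as well as C1s2, so this rise cannot be told apart from that of C1s. The probe that lists C1s2 alone read 3.17 to 10 and was not well above background on any array. C1ra and C1rb are also close copies, whose probes list 1 of them each, and whether they share signal was not tested. Masp1, a protease of the lectin pathway, read 14.1, 11.5 and 14.5 in sham, not well above background there, and 35.2, 46.3 and 63.4 in TS. This was at least 2.68-fold higher (limma adjusted p = 0.00544, resting on sham levels below background). That bound sets the mean of the TS arrays against the higher of the probe's own sham level and the lowest signal well above background on each sham array. This probe lists no RefSeq transcript. The other Masp1 probe, which lists 1, went the other way (-0.88 on the log2 scale). It was well above background on 1 sham array only and was not tested, so the rise of Masp1 rests on 1 probe. Of the lectin pathway receptors, Mbl1, Mbl2 and Colec10 were not well above background on any array, and Fcna gave 0.85 with an adjusted p of 0.294 by limma.

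Properdin (Cfp), which steadies the alternative convertase, read 1159, 1095 and 1178 in sham and 1188, 1286 and 1489 in TS hearts, a log2 difference of -0.01 (95% confidence interval -0.25 to 0.23). Of the 7 genes of the membrane attack complex, 3 were tested and 2 were higher. C6 read 8.26, 6.97 and 9.0 in sham, not well above background, and 56.2, 41.7 and 54.3 in TS hearts, at least 2.87-fold higher (limma adjusted p = 0.00203, which also rests on such sham levels). C8g, which encodes the gamma chain of C8, rose by 0.35 on the log2 scale by its brighter probe (limma adjusted p = 0.0488), and its other probe gave 0.16. C8b, C9 and Hc, the gene of C5, were not well above background on any array.

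Genes that restrain complement were listed by where their products sit. Of 9 soluble regulators on the array, 4 were tested, 2 were higher and 1 lower. Serping1, the inhibitor of C1r and C1s, read 9601, 9635 and 9796 in sham and 19796, 15234 and 20340 in TS hearts. It rose by 0.71 on the log2 scale and, on its dimmer probe, by 0.81 (limma adjusted p = 0.0235 and 0.0186). Vtn, which encodes vitronectin, fell by 0.59 (limma adjusted p = 0.0279), and Clu gave 0.72 with an adjusted p of 0.063 by limma. Of 9 membrane regulators on the array, 7 were tested and 0 passed by limma. Their differences lay between -0.49 for Cd55 and 0.23 for Susd4, with a median of -0.19. Every TS array lay below every sham array for 3 of the 7, beside 4170 of all 17140 genes tested. Without adjustment 0 of the 7 were higher and 0 lower at p under 0.05 by limma, and the methods' t-test also called 0. Over all genes tested, 18.7% were higher and 20.6% lower by limma without adjustment. Cd59a, which blocks the attack complex, gave -0.20 (95% confidence interval -0.45 to 0.05). Cr1l, the mouse regulator known as Crry, gave -0.18 (-0.40 to 0.05). Whether soluble and membrane regulators differ as groups was not tested.

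Of 10 receptors for complement proteins, all tested, 1 was higher and 1 lower, close to the 10.5% and 10.6% of all genes tested. Vsig4, a macrophage receptor for C3 fragments, read 91.1, 54.3 and 55.4 in sham and 452, 150 and 823 in TS hearts, a log2 difference of 2.34 (SE 0.60, limma adjusted p = 0.0384). Cd93, once described as a C1q receptor, read 15254, 14967 and 15383 in sham and 7903, 9017 and 7930 in TS hearts, so that it fell by 1.09 (SE 0.09, limma adjusted p = 0.00223). It was past the threshold in 20 of 20 alternatives. The anaphylatoxin receptors gave 0.31 for C3ar1, 0.73 for C5ar1 and 0.18 for C5ar2, with limma adjusted p values of 0.158, 0.0895 and 0.252. The integrin genes Itgam, Itgax and Itgb2, which encode the complement receptors of leukocytes, did not pass by their brightest probes, and 1 of 3 Itgam probes was higher (0.71, limma adjusted p = 0.0244). That probe read 43.7, 49.4 and 34.2 in sham and 65, 94.1 and 83 in TS hearts. The brightest Itgam probe read 10430, 12636 and 13138 in sham and 10127, 17240 and 10286 in TS hearts (-0.20). Which of them reads Itgam better was not tested.

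**Figure D3:**
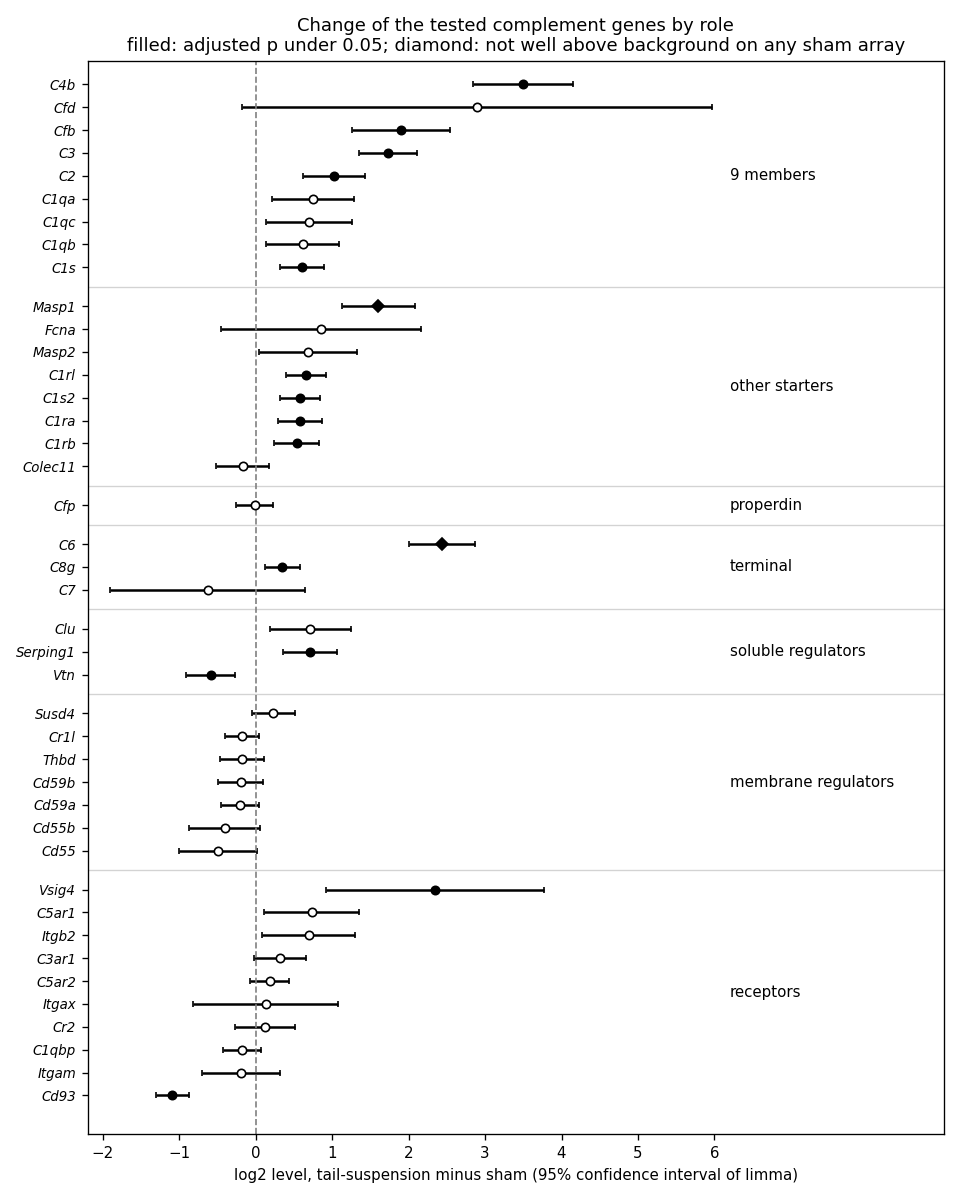
Log2 difference TS minus sham (horizontal axis) with the 95% confidence interval of limma for the 9 genes and 32 of the 33 other tested complement genes, grouped by role and read from the brightest tested probe; filled symbols passed an adjusted p of 0.05 and diamonds mark genes with all 3 sham arrays not well above background. C4b lies farthest to the right at 3.50, all 7 membrane regulators are open, and Vtn and Cd93 are the filled symbols left of 0.

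C2, Cfb and C4b lie close together in the class III region of the major histocompatibility complex on chromosome 17, with Cyp21a1, Stk19, Dxo, Skiv2l and Nelfe between C4b and Cfb in the RefSeq order of protein-coding genes. C4a, which that table lists as a transcribed pseudogene, also lies between them, next to Cyp21a1. All 5 protein-coding genes passed in the same direction by their brightest probe, with log2 differences of 0.49, 0.35, 0.53, 0.48 and 0.56. The intervals of Cfb (1.26 to 2.54) and C4b (2.84 to 4.16) lay above those of all 5, the highest of which ended at 0.79, while that of C2 (0.62 to 1.43) overlapped those of all but Stk19, which ended at 0.57. Among 10 tested neighbours in all, 6 were higher and 1, Tnxb, was lower (-0.41), beside 10.5% and 10.6% of all genes tested. The dimmer probe of Cyp21a1 went the other way (-0.88, limma adjusted p = 0.0157).

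**Figure D4:**
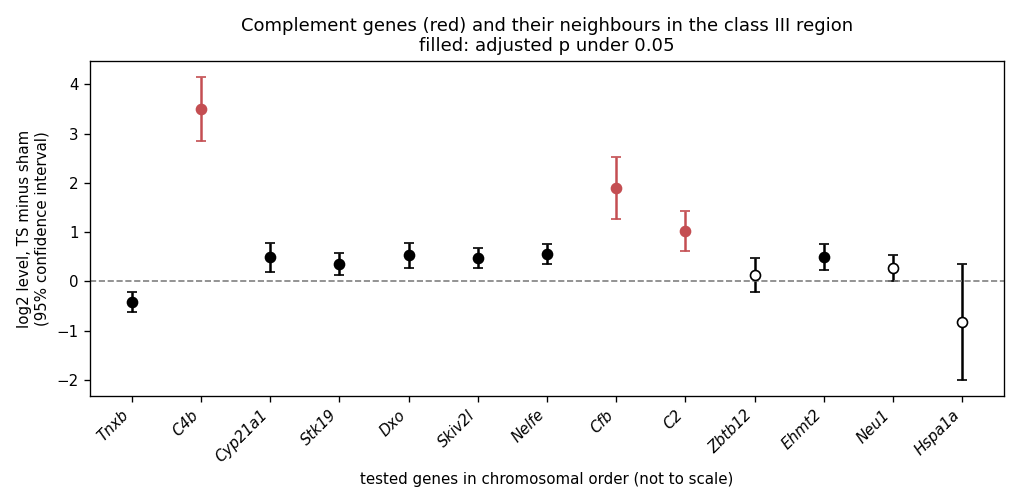
Log2 difference TS minus sham with its 95% confidence interval (vertical axis) for C4b, Cfb and C2 (red) and tested genes near them (black), in chromosomal order and not to scale; filled symbols passed an adjusted p of 0.05. C4b at 3.50 and Cfb at 1.90 stand above the genes between them, which lie between 0.35 and 0.56.

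The genes whose centred profile over the 6 arrays was most like that of a member were named among 16288 genes well above background on all 6 arrays. For C4b these were Apod, Serpina3n, Clca1, Slc10a6 and Ahsg, with root mean square differences of 0.23 to 0.36 on the log2 scale and changes of 2.98 to 3.81. For C3 they were Mnda, Myc and Pth1r (0.11 to 0.14) and 2 probes named only by transcript. For the mean of the 3 C1q genes they were Ttll1, Itgb2, Aoah, Hcst and Podn (0.06 to 0.10). Itgb2, a leukocyte integrin chain, read 160, 117 and 129 in sham and 261, 177 and 341 in TS hearts. TS 2 was its lowest TS array as for C1q, which follows from its choice by likeness to the C1q profile.

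Marker genes of cells known to make these components were set beside them. Of 12 macrophage markers, 11 were tested, 2 were higher and 1 lower, beside 10.5% and 10.6% of all genes tested. Their median difference was 0.19 on the log2 scale. The mean level of the list lay between -0.93 and -0.37 in sham and between -0.80 and -0.22 in TS hearts, and within each group its order of arrays was that of C1q. Cd163, a scavenger receptor of tissue macrophages that was not well above background in any sham heart, was at least 3.38-fold higher, Mertk rose by 0.72, and Cx3cr1, a chemokine receptor, fell by 2.44. The general markers Csf1r (0.13) and Adgre1 (0.19) did not pass. The part of macrophages in the C1q values was not tested.

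Fat cell markers were set beside Cfd, and within each group the mean of the list and Cfd had the same order of arrays. Of 8 adipocyte markers, 3 were tested, and Lipe was higher (1.06). Of these 3, Fabp4 was highest on TS 1 among the TS arrays (level 7.59), but Lipe (-0.36, 0.20 and -0.30 on TS 1, 2 and 3) and Cidea (5.27, 5.34 and 5.40) were lowest there. The other 5 markers of the list were well above background on at most 2 of the 6 arrays. The mean level of the list was -0.66 on TS 1, where Cfd was highest, and between -2.18 and -1.90 on the other TS arrays. In sham it was -1.82, -1.87 and -2.40, lowest on sham 3 as Cfd was. Adipoq, the gene of adiponectin, read 19.3, 12.8 and 6.10 in sham and 72.5, 4.24 and 5.65 in TS hearts, and Plin1 21.7 on TS 1, the array on which alone it was well above background. Lep was not well above background on any array. The part of fat tissue in the Cfd values was not tested.

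Liver markers bear on the other components, which the liver makes for the blood. Of 8 hepatocyte markers, 4, Alb, Apoa1, Fgb and Apob, were not well above background on any array, and Ttr was the 1 of 4 tested that was higher (2.64). The mean level of this list was between -4.27 and -4.05 in sham and between -3.99 and -3.62 in TS hearts. That shift was not shared by the tested markers, since Apoa2, Serpina1a and Tat gave -0.01, 0.11 and -0.15. Ttr read 20.5, 19.9 and 10.9 in sham, well above background on 2 of these arrays, and 138, 71.8 and 170 in TS hearts. Of 6 tested neutrophil markers 3 were higher and 0 lower, beside 10.5% and 10.6% of all genes tested. S100a8 rose by 4.80 and S100a9 by 4.61 on the log2 scale. Mpo, not well above background in any sham heart, entered the test through the TS arrays alone and was at least 2.2-fold higher. The other tested markers, Camp (1.97), Csf3r (0.29) and Elane, did not pass. Elane went the other way (-0.30, limma adjusted p = 0.0664). The mean level of the list was 1.19, -0.52 and 0.13 on TS 1, 2 and 3, against -2.32 to -2.11 in sham. Their part in the complement values was not tested.

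Acute-phase and interferon genes, which are known to change together with complement in inflamed tissue, were counted last. Of 9 tested acute-phase genes, 7 were higher and 0 lower, beside 10.5% and 10.6% of all genes tested, with a median of 1.36. Among the 7, Hpx was not well above background in any sham heart and entered the test through the TS arrays alone. It was at least 1.27-fold higher. Lcn2 rose by 4.05, Hp, which encodes haptoglobin, by 4.04, Serpina3n by 3.81, and Socs3, a feedback inhibitor of cytokine signalling, by 1.49. The mean level of the list was 0.18, -0.69 and 0.07 on TS 1, 2 and 3, the order of arrays also seen for C4b, C3, C2 and C1s. Of 13 tested interferon-response genes, 0 were higher and 1 lower by limma, beside 10.5% and 10.6% of all genes tested. Without adjustment 0 were higher and 5 lower at p under 0.05 in that fit, beside 18.7% and 20.6% of all genes. The methods' t-test with adjustment gave 0 higher and 1 lower, beside 5.28% and 5.11%. Cxcl9 fell by 2.35, and Ifit1 (0.15) and Psmb8 (-0.17) did not pass.

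**Figure D5:**
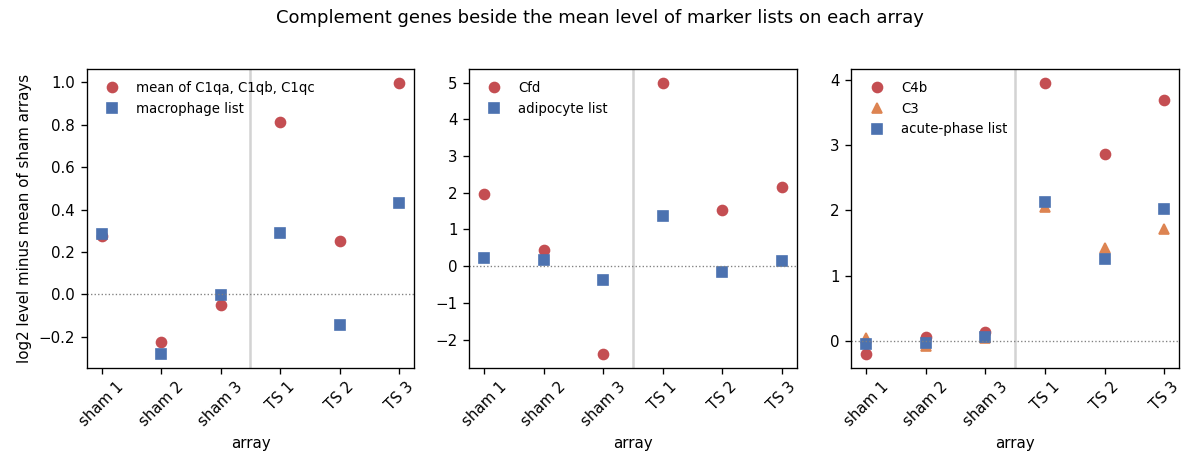
Log2 level minus the mean of the 3 sham arrays (vertical axis) on each array (horizontal axis) for the mean of the C1q genes beside the macrophage list, Cfd beside the adipocyte list, and C4b and C3 beside the acute-phase list, where a list is the mean over its genes on the array. TS 2 is the lowest TS array for the C1q genes, C4b, C3 and Cfd, and for each of the 3 lists.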

How the data were processed

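Gene expression was measured in 3 sham and 3 tail-suspended mouse hearts on 1-colour Agilent arrays. For every array the authors deposited a scanner file, where Agilent Feature Extraction 10.7.1.1 gave each spot a mean, a background and a background-corrected processed intensity. They also deposited log2 values of the same arrays, whose columns correlated with the log2 processed intensity at 0.999 or above and agreed after sorting within 0.12, so scale and centring were close to quantile normalization. No other processing is given in the sources used here.

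The members and all gene lists were chosen with earlier results of these data known. Levels are log2 processed intensities minus the log2 of the 75th percentile over spots that were not controls. Outlier spots were left out, and a probe's spots were averaged as log2 values. A probe was well above background when at least 50% of its spots were flagged so. Probes that were so on all arrays of either group entered limma 3.58.1 in R 4.3.3 (lmFit and eBayes, no covariates) over all 28032 probes. P-values were adjusted by Benjamini-Hochberg, and the threshold was 0.05. The brightest tested probe stood for its gene. Names are those of the array, with older names matched through RefSeq, and probe coordinates are on mm9, as in the files. Whether a probe lies in a coding exon or a UTR was not analysed here. Named are every member, the other complement genes past the threshold, up to 4 genes of each marker list, the 5 profiles most alike, and further genes chosen after their values were seen. Some genes of the lists enter the counts but are not reported here by name.

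The labels name 3 mice per group. Alternatives were normexp with an offset of 50, quantile normalization, another percentile, the authors' log2 values, 2 filters, outliers kept, the methods' t-test, an intensity trend with robust eBayes, weights for arrays, blocks for replicate number and slide row, another probe rule, dim levels held at the lowest signal above background (chosen after seeing the data), and each array left out. On simulated data from 28003 probes, 72% of probes changed by 1 and 88% of those changed by 2 on the log2 scale were called for tail-suspension against sham.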

Additional observations from a re-analysis of the deposited data

How the results depend on the processing

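None of the 9 complement genes changed direction under the alternatives that tested it, which were 19 for Cfd and 20 for each of the others. The count of members called higher was 5, and it became 8 with normexp and with array weights, where the 3 C1q genes were added, and 3 with the methods' t-test, where C2 and C1s were lost. Leaving out 1 array at a time gave 3 to 8. No member was called lower under any alternative. For the other complement genes, the 10 called higher became 3 with no filter on dim probes, 4 with the methods' t-test and 1 under the slide row block, where TS 1 alone is set against sham, and the 2 called lower became 1 in each of these. Leaving out 1 array gave 3 to 13 higher and 1 to 2 lower. Over all genes, the 1794 called higher ranged from 211 with the slide row as a block to 2552 with array weights, and were 641 with no filter, 905 with the methods' t-test and 1038 with the replicate block.

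The labels give replicate numbers but name no pairing of the mice. The deviations of arrays with the same number correlated at -0.02, -0.02 and 0.05, so no effect shared by number was seen over all genes. Such correlations cannot exclude a pairing. The replicate block kept 5 members and 8 other complement genes higher and 0 and 2 lower. Signal limits Cfd in sham 3 and Masp1 and C6 in all sham hearts, where only a bound is known. With 3 arrays a group, the intervals of the C1q genes were wide, from 1.16-fold to 2.45-fold for C1qa.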

Other observations

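Other cell types in the same hearts gave the following counts beside the complement genes. Over all genes tested, 10.5% were higher and 10.6% lower by the same limma rule. Of 8 tested fibroblast markers, 0 were higher and 1, the collagen gene Col3a1, was lower by limma (-1.88). Of 6 endothelial markers, 1 was higher, Vwf (0.99), and 2 were lower, Kdr (-0.55) and Emcn (-0.50). Of 4 tested erythroid markers, Hba-a1 fell by 1.5 and 0 were higher. Of 4 tested lymphocyte markers, 2 were lower, among them the B cell gene Cd79a (-0.87). Of 8 cardiomyocyte markers, Actc1 was lower (-0.33) and the other 7 did not pass by their brightest probes. A dimmer probe of Myh6 read 13164, 11373 and 13578 in sham and 5102, 7294 and 3949 in TS hearts. It was lower by 1.48 on the log2 scale (limma adjusted p = 0.00921), while the brightest Myh6 probe gave -0.09.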
